A study of Oncorhynchus mykiss with 3 samples.

Results

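The miR-34 and miR-449 microRNAs (miRNAs) of rainbow trout eggs were described. The members were all known miRNAs named miR-34 or miR-449, with any letter and from either arm of the hairpin, and 5 of 575 known names met this rule. They were omy-miR-34a-5p, omy-miR-34b-5p, omy-miR-449-5p, omy-miR-449a-3p and omy-miR-449b-3p, each read as 1 of the 1059 unique sequences of known miRNAs. No predicted miRNA was taken in, since predicted miRNAs carry numbers of the study's own. Names were counted as spelled, so the miR and mir forms of a name count apart. The 575 names are more than the known miRNAs that the paper counts, and places and medians below rest on them.

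Small RNA was sequenced from eggs of trout from commercial populations at day 1 (D1PO), day 7 (D7PO) and day 14 (D14PO) after ovulation, and the labels give no other treatment. The labels give survival rates of 91.8% for D1PO, 73.4% for D7PO and less than 50.0% for D14PO. The paper describes these percentages as fertilization rates. Each age was 1 library of RNA pooled from eggs of different females, so no age has a replicate. The deposited tables give a single number of reads for each unique sequence and name no library, so the values below describe the eggs of the 3 ages together, and no difference between the ages was computed. Values of single ages in the supplement of the paper were not used here. This number was read as the sum of the 3 libraries, an assumption that no source used here states. The table of known miRNAs held 7684127 reads and that of predicted miRNAs 333447. The total of known miRNAs is larger than the miRBase matches of the libraries, as listed in the paper, add up to, so what the number sums over is not settled. Intervals are exact 95% intervals for counts, which hold only if the number is such a count, and they cover counting error only.

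A miRNA is cut from a hairpin RNA, and either strand of its stem can become the mature miRNA, named 5p or 3p after its side of the hairpin. Bases 2 to 8 of the mature miRNA, the seed, do most of the pairing with target mRNAs, so miRNAs that share a seed can share targets. In mammals miR-34 genes are known to be switched on by the tumour suppressor p53, and in mouse and frog the miR-34 and miR-449 miRNAs together are needed for the making of motile cilia. The tables hold small RNAs only and no ciliated-cell gene, so the link to ciliated cells is background here and was not tested.

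The mature sequences are shown because the 5p members share a seed that the names do not reveal, while the 3p members do not. Each is written 5′ to 3′ as deposited, with the seed in capitals.
omy-miR-34a-5p: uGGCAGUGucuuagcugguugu
omy-miR-34b-5p: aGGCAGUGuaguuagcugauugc
omy-miR-449-5p: aGGCAGUGucuuguuagcuga
omy-miR-449a-3p: cAGCUCACgcuacagcugccc
omy-miR-449b-3p: cAGUUUACcugcugcugcccuc

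The family was present in the eggs and held a small share of the reads of known miRNAs. Its 5 names together had 4362 reads (95% Poisson interval 4234 to 4493), or 0.0568% of the reads of known miRNAs (0.0551 to 0.0585). The most abundant member was omy-miR-34b-5p with 2407 reads (2312 to 2505), which made up 55.2% of the reads of the family (Clopper-Pearson interval 53.7 to 56.7). omy-miR-34a-5p followed with 815 reads (760 to 873) and 18.7% of the family. omy-miR-449-5p had 651 reads (602 to 703) and 14.9%. The 3p members were the rarest, with 489 reads between them. omy-miR-449a-3p had 346 of these (311 to 384) and 7.93% of the family, and omy-miR-449b-3p had the rest (121 to 168) and 3.28%. The 5 intervals did not overlap, so the order of the members holds beyond counting error, but how evenly the libraries captured different sequences was not tested.

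**Figure D1:**
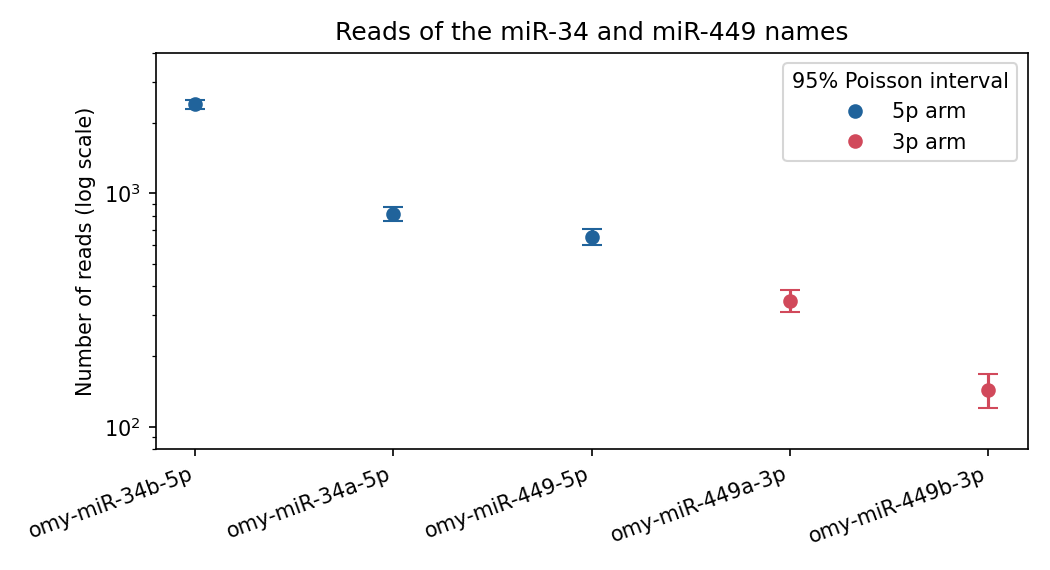
Number of reads of each miR-34 and miR-449 name over the 3 ages together, on a log axis, with 95% Poisson intervals as bars (blue, 5p arm; red, 3p arm). The 3 members of the 5p arm lie above both members of the 3p arm, from 2407 reads of omy-miR-34b-5p down to the interval of 121 to 168 of omy-miR-449b-3p.

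Within miR-34, the b copy was read more than the a copy. omy-miR-34b-5p had 2.95 times the reads of omy-miR-34a-5p (exact interval of the ratio 2.73 to 3.20). The closest pair of neighbours in the order was omy-miR-34a-5p and omy-miR-449-5p, with a ratio of 1.25 (1.13 to 1.39), and the widest distance lay between omy-miR-34b-5p and omy-miR-449b-3p, with a ratio of 16.8 (14.2 to 20.1). The miR-34 names together held 3222 reads, or 73.9% of the family (72.5 to 75.2), and the miR-449 names 1140, or 26.1%. By arm, the 5p members held 3873 reads, or 88.8% (87.8 to 89.7), and the 3p members 11.2%. A 3p member is listed for miR-449 only.

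Among all known miRNAs the members lay in the middle of the range. By reads, omy-miR-34b-5p was at place 147 of 575 names, omy-miR-34a-5p at 216, omy-miR-449-5p at 230, omy-miR-449a-3p at 271 and omy-miR-449b-3p at 339. The median known name had 286 reads, and 4 of the 5 members lay above it. As a share of the reads of known miRNAs, omy-miR-34b-5p held 0.0313% (0.0301 to 0.0326) and omy-miR-449b-3p 0.00186% (0.00157 to 0.00219). The table is steep at its top, where omy-miR-143-3p alone had 2165874 reads.

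**Figure D2:**
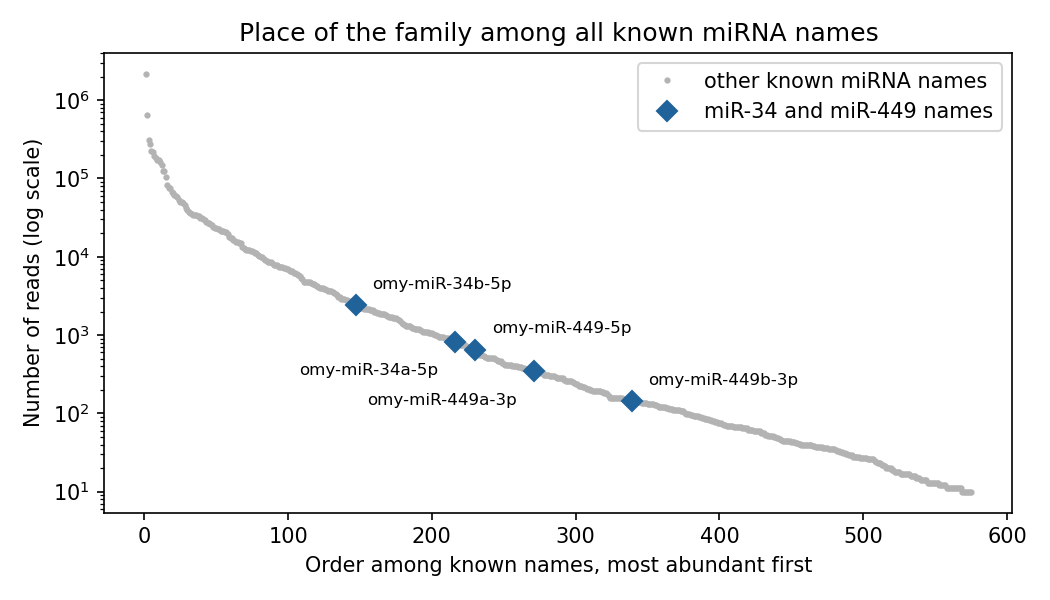
Number of reads of all 575 known names on a log axis against their order, most abundant first, with the 5 miR-34 and miR-449 names as blue diamonds and the others as grey points. The members lie between place 147 and place 339, in the middle of the curve.

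The names closest in reads to each member could not be told from it by counting. omy-miR-34b-5p lay between omy-miR-454b-3p with 2533 reads and omy-miR-194a-5p with 2315, and the intervals of 5 other names overlapped its own. omy-miR-34a-5p lay between omy-miR-129-5p with 827 reads and omy-miR-455-3p with 812, with 16 names overlapping. For omy-miR-449-5p the neighbours were omy-miR-206-5p with 655 reads and omy-let-7a-1-3p with 628, with 15 names overlapping. At the lower counts places are less sure. The interval of omy-miR-449a-3p, which was tied with omy-mir-16c-5p and lay between omy-mir-187-1-5p with 352 reads and omy-mir-1306-5p with 342, overlapped those of 40 names. That of omy-miR-449b-3p overlapped those of 62 names, and its nearest names were omy-mir-221-2-5p with the same reads, omy-mir-96-5p and omy-mir-7550-3p with 146 each, and omy-miR-1-5p and omy-mir-30d-5p with 142 each. A likeness in reads over the ages together says nothing of a likeness across ages.

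The 3 members of the 5p arm carry the same seed, GGCAGUG, and no other sequence of the known or predicted miRNAs carries it. Together they had 3873 reads (3752 to 3997), which puts this seed at place 104 of the 819 seeds of both tables, above 87.3% of them. Of the 819 seeds, 53, or 6.47%, were carried by 3 or more names and 83.5% by a single name. These are shares of seeds and not of names, and they include the predicted miRNAs. The members were chosen beforehand as a family, so their shared seed is a description and not a finding against these shares. omy-miR-34b-5p gave 62.1% of the reads of the seed (60.6 to 63.7), omy-miR-34a-5p 21.0% (19.8 to 22.4) and omy-miR-449-5p 16.8% (15.6 to 18.0). In the other 52 seeds with 3 or more names, the share of the most abundant name ran from 28.1% to 99.7% with a median of 61.3%, so the share of omy-miR-34b-5p was near the middle of these. Their median was 9584 reads, and 25 of the 52 had fewer reads than the seed of miR-34 and miR-449.

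The seeds of the 3p members are single. AGCUCAC occurred in omy-miR-449a-3p alone and stood at place 300 of the 819 seeds, and AGUUUAC occurred in omy-miR-449b-3p alone, at place 445. They differ from each other and from the seed of the 5p members, so the 5 names hold 3 seeds.

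Beyond the seed, the 5p members share a second stretch, at a place that shifts from one to the next. GGCAGUGU stands at bases 2 to 9 in all 3. UUAGCUG stands at bases 11 to 17 of omy-miR-34a-5p, 12 to 18 of omy-miR-34b-5p and 14 to 20 of omy-miR-449-5p. Both runs were searched in the strand as read. Of the 1418 sequences of both tables, 6 held the first run, or 0.423%, and the 3 that are not members belong to omy-miR-222a-5p, where it lies outside the seed. The second run was held by 5 sequences, or 0.353%, the others being omy-miR-27b-5p and omy-mir-27d-5p. The 3 members of the 5p arm were alone in holding both runs. A match of letters is a description and not a site.

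Because the second run shifts, likeness was compared both without and with gaps. Counted base by base from the 5′ end, omy-miR-34a-5p and omy-miR-449-5p were identical at 13 of 21 bases, omy-miR-34a-5p and omy-miR-34b-5p at 11 of 22, and omy-miR-34b-5p and omy-miR-449-5p at 10 of 21. With gaps allowed the order of the pairs changed. The miR-34 pair differed by 5 edits, omy-miR-34a-5p and omy-miR-449-5p by 6, and omy-miR-34b-5p and omy-miR-449-5p by 7. The longest run shared without a break was GGCAGUGUCUU of 11 bases, between omy-miR-34a-5p and omy-miR-449-5p. For each member the nearest sequence in either table was another member, at 5 or more edits, and for the 3p pair at 7 edits. No sequence listed under another name was thus a near-identical copy of a member.

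The members also stood on a single sequence each. Of all known names 54.3% had 1 sequence, and of the 194 names with reads in the range of the members, the members among them, 41.8% did, with a median of 2 sequences and up to 7. All 5 members were 21 to 23 nt long and had a position in the trout genome, where 75.9% of known sequences were 20 to 24 nt long and 78.3% had a position. Their first bases were U for omy-miR-34a-5p, A for omy-miR-34b-5p and omy-miR-449-5p, and C for the 3p members, while 44.4% of known sequences began with U, 25.8% with A and 20.5% with C. The 3p members were the richest in G and C, at 66.7% for omy-miR-449a-3p and 59.1% for omy-miR-449b-3p, against 47.6% to 50% in the 5p members and a median of 43.8% over known sequences.

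The miR-449 members come from a pair of hairpins that lie close together, and the miR-34 members from hairpins with no other listed hairpin close by. A hairpin with no listed sequence would not be seen here. Positions refer to the trout genome that the authors mapped to. Its build is not named in any source used here, and whether a hairpin lies in a gene was not analysed here. omy-miR-449-5p and omy-miR-449b-3p share the hairpin chrUn:168809269-168809353 on the minus strand, 85 bases long. omy-miR-449a-3p lies in the hairpin chrUn:168809850-168809918 on the same strand, 69 bases long, with 496 bases between both. The pair spans 650 bases, and its 3 members had 1140 reads (1075 to 1208). omy-miR-34a-5p lies in chrUn:393493739-393493827 on the minus strand and omy-miR-34b-5p in chrUn:811830327-811830403 on the plus strand. The nearest other listed hairpin on the same strand was 937827 bases from omy-miR-34a-5p and 314716 bases from omy-miR-34b-5p, beyond the limit of 10000 bases set for a neighbour. After overlapping positions were joined, 149 of 674 hairpins of both tables had a neighbour within that limit, or 22.1%, and 2 of the 4 hairpins of the family did. chrUn holds 58.0% of these hairpins, and distances on it need not be distances on a chromosome.

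The hairpin of omy-miR-449-5p, called the miR-449 hairpin here, is the only one of the family with both arms listed, and its 5p arm was read more. omy-miR-449-5p had 651 of its 794 reads, or 82.0% (Clopper-Pearson interval 79.1 to 84.6), and omy-miR-449b-3p the rest. The 5p arm thus had 4.55 times the reads of the 3p arm (3.79 to 5.49). These values count all reads of omy-miR-449-5p at the position listed for it. Whether some came from the hairpin of omy-miR-449a-3p was not tested, and the intervals do not cover this. With all miR-449 names pooled, the 5p share was 57.1%. Of 467 hairpin positions of known miRNAs, 152 had both arms listed, or 32.5%. Overlapping positions were not joined for this count, so arms listed at positions that differ count as separate hairpins. In the other 151 the larger arm held a median of 95.7% of the reads (quartiles 78.1 and 99.1), and 107 of them, or 70.9%, were more one-sided than the miR-449 hairpin. The 5p arm was the larger in 52.3% of the 151. Positions that list a single arm, 139 with 5p only and 176 with 3p only, are left out of this comparison. A hairpin with few reads lists both arms only if it is not very one-sided, and hairpins were not matched by reads. The hairpin of omy-miR-449a-3p lists no 5p sequence, and the hairpins of the miR-34 members list no 3p sequence. Since no listed sequence has fewer than 10 reads, an arm that is not listed may have been read below that number.

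**Figure D3:**
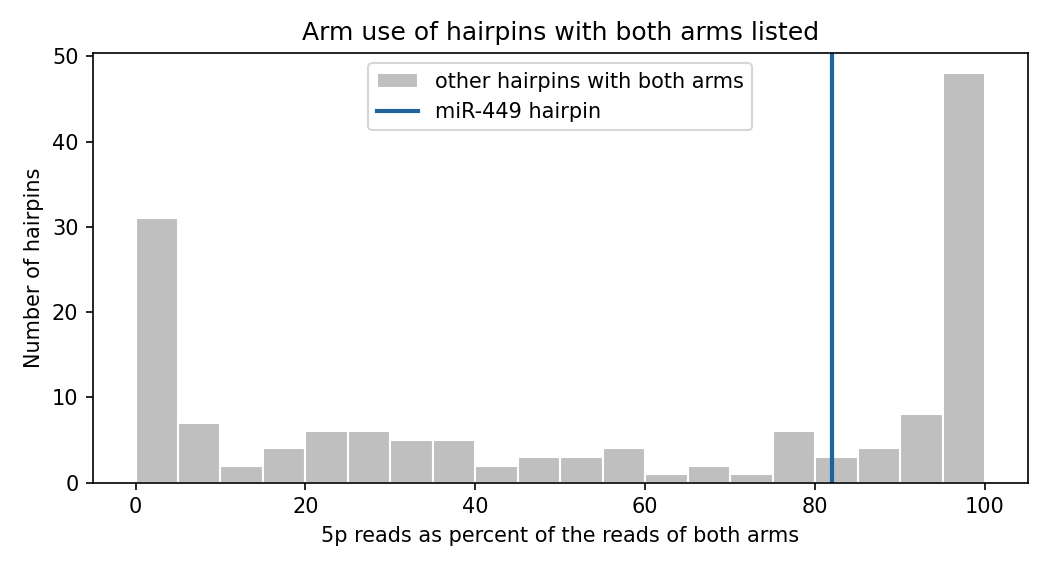
Number of hairpins (vertical axis) by the reads of the 5p arm as percent of the reads of both arms (horizontal axis, in steps of 5 percent), for the 151 other hairpins with both arms listed (grey) and the miR-449 hairpin (blue line, 82.0%). Most hairpins lie near either end of the axis, and the miR-449 hairpin lies inside the upper end.

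The 3p members share a run at or near their 3′ ends, GCUGCCC, at bases 15 to 21 of omy-miR-449a-3p and 14 to 20 of omy-miR-449b-3p. Pairing of the mature arms was computed to see how many bases of the seed of the 5p members are paired. Which bases of the 3p members pair with the seed is not given, so pairing of the shared run with it is not shown. In the predicted duplex of omy-miR-449-5p with omy-miR-449b-3p, its partner on the hairpin, 15 base pairs formed with an energy of -17.2 kcal/mol, and all 7 bases of the seed were paired. Among the 151 other hairpins with both arms the median energy was -20.7 kcal/mol, and 78.8% had a lower energy than this duplex. With omy-miR-449a-3p of the neighbouring hairpin, omy-miR-449-5p formed 16 base pairs at -20.2 kcal/mol, also with 7 of 7 seed bases paired. Pairs from hairpins that lie far apart paired as well. omy-miR-34b-5p paired at -23.5 kcal/mol with omy-miR-449a-3p and -18.9 kcal/mol with omy-miR-449b-3p, both with 7 of 7 seed bases. omy-miR-34a-5p paired at -19 kcal/mol with omy-miR-449a-3p and -15.7 kcal/mol with omy-miR-449b-3p, each with 6 of 7 seed bases. The 5p members share the seed, and part of the run shared by the 3p members is complementary to part of that seed. Pairing of most seed bases in all of these pairs can thus follow from the shared sequences. No pair of a member with an unrelated sequence is given for comparison. The pairs and energies are predictions from 2 sequences alone, and whether omy-miR-449-5p has a further copy in the genome was not analysed here.

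Beside miRNA lists named after other cell types and tissues, the family had few reads. Of 11 lists matched by miRNA number, the miR-34 and miR-449 list was the lowest. The liver list, of miR-122, was next with 4893 reads, 1.12 times those of the family (1.08 to 1.17), of which omy-miR-122-5p had 4735. The epithelial list of miR-200, miR-141 and miR-429, found in epithelia that can also be ciliated, had 12.4 times the reads of the family (12.0 to 12.8), led by omy-miR-200a-3p with 45302. Skin epithelium, led by omy-miR-205-5p with 28162 reads, had 15.7 times, and the early-embryo list, led by omy-miR-430a-3p with 9503, had 6.52 times. The 28423 reads of the early-embryo list came to 19461 with only sequences of 20 to 24 nt, and to 23345 with only sequences that have a genome position. Endothelium, led by omy-miR-126-3p with 33735 reads, had 19.0 times the reads of the family, and its 82952 reads came to 49399 without sequences that have no genome position. The neural list, led by omy-miR-9-5p with 103918 reads, had 30.2 times, and red blood cells, led by omy-miR-451-5p with 170238, had 39.1 times. The most abundant lists were gonad at 70.9 times, led by omy-miR-202-5p with 309092 reads, striated muscle at 98.8 times, led by omy-miR-1-3p with 150247, and smooth muscle at 504 times, led by omy-miR-143-3p. The lists hold from 2 to 19 names each. They were chosen with earlier results of these data known, so the lowest place of the family holds among these lists only. Among all 139 miRNA numbers of the known miRNAs, miR-34 stood at place 77 by reads and miR-449 at place 96. Whether the reads of a list came from such cells or from the egg itself was not tested. How many cells of a type a sample held and how much of a miRNA each cell held cannot be told apart from these reads.

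**Figure D4:**
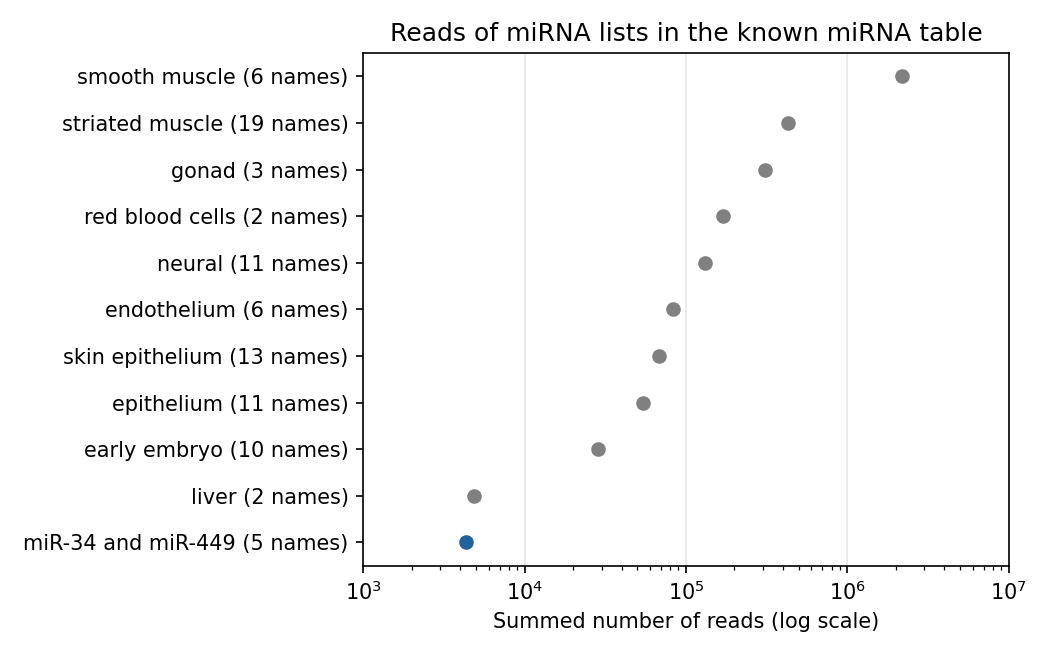
Summed number of reads on a log axis for 11 miRNA lists of the known miRNA table, over the 3 ages together, with the number of names in each list; the counting intervals are narrower than the points. The miR-34 and miR-449 list (blue, 4362 reads) lies lowest, just under the liver list at 4893.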

How the data were processed

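Small RNA libraries of D1PO, D7PO and D14PO eggs, 1 for each age, were sequenced on the Illumina platform. The authors processed the reads with ACGT101-miR, removed low-copy, adapter and junk sequences and matches to mRNA, Rfam and Repbase, took known miRNAs from matches to miRBase, and predicted others from genome hairpins. The deposited values are counts, 1 number of reads for each unique sequence with no library named. Counts of single libraries, planned with the same intervals had they been available, could therefore not be given. No test was planned, since each age was 1 library without a replicate, and no p-value is given.

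Reads were summed by name after spaces were removed. Exact Poisson intervals, Clopper-Pearson intervals of shares and exact conditional intervals of ratios were computed at 95% and tested on simulated data. Names and sequences were read as listed, and 3 sequences of other miRNAs hold an undetermined base. Likeness was counted in edits (a changed, added or missing base). Hairpins that overlap on a strand were joined before neighbours were counted, a change from the plan made after the positions were seen. Duplexes were computed from the most abundant sequence of each arm with RNAduplex of ViennaRNA 2.7.2. Tables were handled with pandas 2.3.3 and intervals computed with SciPy 1.17.1 under Python 3.11.15, and plots were drawn with matplotlib 3.10.9.

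The miRNAs named are the members, those that share a seed or a shared run with a member, those nearest in reads, and the most abundant name of each list. Those named for a shared run fall outside the rule for named miRNAs and were chosen after the sequences were seen. The members and lists were chosen with earlier results of these data known.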

Additional observations from a re-analysis of the deposited data

How the results depend on the processing

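The reads of the family did not depend on the planned choices that were tried. With only the main sequence of each name, only placed sequences, only sequences of 20 to 24 nt, or sums by study number, the family had 4362 reads, since each member is a single placed sequence of that length. The reads of the shared seed were 3873 with bases 2 to 7, since no further sequence carries these bases, and also in the known table alone and at a minimum of 100 reads, which had nothing to remove. The share of the family depended on the denominator, at 0.0544% of known and predicted reads, 0.0593% of known reads of 20 to 24 nt and 0.0790% without omy-miR-143-3p, against 0.0568%. The 5p share of the miR-449 hairpin, 82.0%, was 57.1% when all miR-449 names were pooled, which adds omy-miR-449a-3p of the neighbouring hairpin. With a limit of 1000 bases, 15.9% of all hairpins had a neighbour, against 22.1%. Without joining overlapping positions, the count as first planned and here an alternative added after the data were seen, it was 39.6%, since overlapping positions then count as neighbours. 2 of the 4 hairpins of the family had a neighbour under each of these settings. The family was the lowest of the 11 lists also with sequences of 20 to 24 nt and with placed sequences only. In all, 72 of 98 alternative values stayed within the counting interval or within 1.5 times a place or count. Many of these, such as the reads of each member under the sequence filters, could not change, so this count does not measure stability. No paired analysis was possible because the deposited reads are not split by age and an age was sequenced once. The place of omy-miR-449b-3p was 339 among known names, 519 among unique sequences and 514 among known and predicted names, which are longer lists. The effect of depth was not tested.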
